A study of Homo sapiens with 6 samples.

Results

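The promoters described here were those that the authors listed as bound by N-Myc but whose gene had no H3K4me3 peak listed after WDR5 knockdown. They numbered 292 of the 3254 promoters in the N-Myc-binding table, out of 9585 promoters in the tables for bound and unbound promoters together. The members were chosen by gene name, as rows of the N-Myc-binding table whose name was absent from the WDR5 siRNA list of genes with a peak within 1 kb of the transcription start site (TSS). Of the 292, 129 had a peak listed with control siRNA and are called control-only members. The other 163 had no peak listed in either library and are called unlisted members, although an unlisted gene may also be one that the authors' peak annotation gave another name.

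H3K4me3 was mapped by chromatin immunoprecipitation and sequencing in BE(2)-C cells, an established human neuroblastoma line with amplified MYCN. Cells had received WDR5 siRNA-1 or a control siRNA for 24 h, and each siRNA gave 1 H3K4me3 library. The series holds 6 libraries, and no value given here was read directly from its IgG and input libraries. Whether these served as controls for the authors' peak calls is not stated in the sources used here. All cells were of this line, knockdown was with 1 siRNA, and the libraries used here include no replicate, so differences between the peak lists have no replicate error and no test. The title of the control H3K4me3 library ends in a 2, and the labels do not say whether that is a replicate number. The WDR5 siRNA list held 11870 distinct names and the control siRNA list 13618. No read number or peak height accompanied the names, so the depth behind each peak call is unknown.

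WDR5 is a core subunit of the complexes that methylate lysine 4 of histone H3, and the trimethylated form, H3K4me3, marks the promoters of active genes. N-Myc, the MYC-family factor encoded by MYCN, pairs with MAX and prefers the DNA sequence called the E-box, with CACGTG as its canonical form. In neuroblastoma with amplified MYCN it occupies many promoters, among them those of genes for ribosome production and cell growth.

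Sequences around a CACGTG are shown for members whose genes are discussed below, to show where the canonical N-Myc/MAX element lies in their promoters. All are stretches upstream of a RefSeq start on GRCh38.p14, 5′ to 3′ in the direction of transcription, with the CACGTG in capitals. The deposited TSS positions are on hg19 and were not converted, so the RefSeq start may be another start of the gene than the one the authors used. A match is a description of the letters and not a binding site. The first 5 are control-only members, namely TERT, the catalytic subunit of telomerase, LDHA, a lactate dehydrogenase subunit, CYB561, the cytochrome b561 of secretory vesicles, FGFRL1, a receptor-like protein that binds fibroblast growth factors, and DDX25, an RNA helicase of male germ cells.
TERT, chr5:1295166-1295291, minus strand: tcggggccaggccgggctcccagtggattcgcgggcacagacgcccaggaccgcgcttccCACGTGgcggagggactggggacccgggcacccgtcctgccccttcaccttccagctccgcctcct
LDHA, chr11:18394416-18394541, plus strand: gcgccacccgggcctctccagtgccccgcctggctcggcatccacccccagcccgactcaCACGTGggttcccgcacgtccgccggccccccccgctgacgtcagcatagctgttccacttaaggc
CYB561, chr17:63446347-63446472, minus strand: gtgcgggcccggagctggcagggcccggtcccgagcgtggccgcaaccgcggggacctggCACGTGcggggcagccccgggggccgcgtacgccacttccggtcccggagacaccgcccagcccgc
FGFRL1, chr4:1012376-1012463, plus strand: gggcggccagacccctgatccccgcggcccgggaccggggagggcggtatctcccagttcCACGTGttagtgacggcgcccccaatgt
DDX25, chr11:125904425-125904507, plus strand: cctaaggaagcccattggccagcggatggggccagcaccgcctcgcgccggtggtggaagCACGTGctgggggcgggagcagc
In TERT the CACGTG began 163 bases before the RefSeq start. LDHA held it in 2 places, beginning 185 and 87 bases before the start, and the stretch shown holds the nearer one. CYB561 also held it in 2 places, the farther beginning 169 bases before the start, and the nearer one is shown. The elements of FGFRL1 and DDX25 lay close to the start, beginning 28 and 23 bases before it.

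Unlisted members with the same element included genes of the germ line and of signalling. TCP11, STK31 and MORC1 are known from testis and spermatogenesis, DUSP2 is a phosphatase that inactivates MAP kinases, and MAFG is a small MAF transcription factor. ODC1, the first enzyme of polyamine synthesis and a bound promoter with a peak listed in each library, is shown for comparison.
TCP11, chr6:35141340-35141439, minus strand: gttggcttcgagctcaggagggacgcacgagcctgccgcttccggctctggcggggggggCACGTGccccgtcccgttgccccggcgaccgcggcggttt
STK31, chr7:23710092-23710217, plus strand: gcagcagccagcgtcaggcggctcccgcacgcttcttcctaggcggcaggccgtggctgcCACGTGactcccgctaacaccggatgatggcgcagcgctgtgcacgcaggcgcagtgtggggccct
MORC1, chr3:109118135-109118243, minus strand: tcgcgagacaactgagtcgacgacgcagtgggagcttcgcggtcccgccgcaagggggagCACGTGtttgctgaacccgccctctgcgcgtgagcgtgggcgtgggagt
DUSP2, chr2:96145488-96145613, minus strand: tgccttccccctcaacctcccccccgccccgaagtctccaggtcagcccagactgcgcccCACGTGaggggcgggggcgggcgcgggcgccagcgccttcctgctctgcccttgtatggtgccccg
MAFG, chr17:81927736-81927811, minus strand: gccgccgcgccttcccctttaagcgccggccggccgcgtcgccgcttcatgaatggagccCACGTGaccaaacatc
ODC1, chr2:10448013-10448101, minus strand: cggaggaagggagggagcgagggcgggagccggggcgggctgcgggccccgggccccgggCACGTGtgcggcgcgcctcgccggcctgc
The CACGTG began 40 bases before the RefSeq start in TCP11, 67 in STK31, 49 in MORC1, 113 in DUSP2 and 16 in MAFG. In ODC1 it began 29 bases before the start. Other unlisted members held it farther upstream, beginning 207 and 140 bases before the start in TLE6, a gene of the oocyte and early embryo, 207 and 144 in CBX5, a heterochromatin protein, and 224 in RNF32. The window reaches 250 bases upstream, which limits every distance given.

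The rule fixed how many members there are, so these counts describe the lists. Members were 8.97% of the N-Myc-binding table (exact 95% interval 8.01 to 10.0%), whereas 51.8% of the 6331 N-Myc-non-binding promoters and 37.2% of the promoters of both tables were absent from the WDR5 siRNA list. The intervals here treat promoters as independent and cover counting error only, not the error between libraries. Control-only members made up 44.2% of all members (38.4 to 50.1%). Among absent promoters of the non-binding table, 656 of 3278 (20.0%) were control-only. Restricted to promoters with a control peak, 4.18% of N-Myc-binding promoters were control-only, against 17.9% of non-binding ones and 13.5% of all names in the control list. The reverse pattern, a name listed with WDR5 siRNA and not with control siRNA, was found at 4 N-Myc-binding promoters, ZNF585A, FGD4, CTNND1 and DLC1. It was rare in general, since 11773 of the 11870 names of the WDR5 siRNA list were also in the control list. Of the 292 member names, 291 matched a RefSeq gene, and each of these was protein-coding.

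Members lay almost entirely at the bottom of the N-Myc-binding table. The header does not say how its 3254 rows are ordered, and the authors titled the table as a quantification of H3K4me3 although it holds no such value. MYCN was in row 1 and NCL, which encodes nucleolin, in row 13, both listed in both libraries, and MDM2 and ODC1 were in rows 1201 and 1662. The median member stood at 94.9% of the way down, against 45.6% for the rest of the table. With the rows cut in their order into 10 equal parts, the last part held 228 members among 325 promoters (70.2%), with 68 control-only and 160 unlisted. Part 9 held 49 members and part 8 held 9. The first 2000 rows held 5 members. Put the other way, 78.1% of members but 3.27% of the rest of the table fell in the last 10% of rows. The 4 promoters listed with WDR5 siRNA only also lay there, between rows 3237 and 3251.

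Control-only and unlisted members occupied different stretches of that end. Control-only members had a median position of 90.3% (quartiles 85.9 and 93.0%), and unlisted members one of 97.0% (95.6 and 98.3%). Rows 2955 to 3054 held 42 control-only members and 2 unlisted ones. Rows 3055 to 3154 held 15 control-only and 75 unlisted members, and the last 100 rows held 1 and 82. LDHA, in row 3116, and ATP7A, a copper transporter in row 3189, were the lowest control-only members, whereas TERT stood in row 3018. The lowest unlisted member was IFRD1, in row 3247. Among promoters with a control peak, the control-only share was 14.8% in part 9 and 42.2% in part 10. Whether the row order carries an H3K4me3 level or another value could not be told from the tables. If it carries that level, the members' position is no measure independent of the peak calls that chose them, so it is given as a description.

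**Figure D1:**
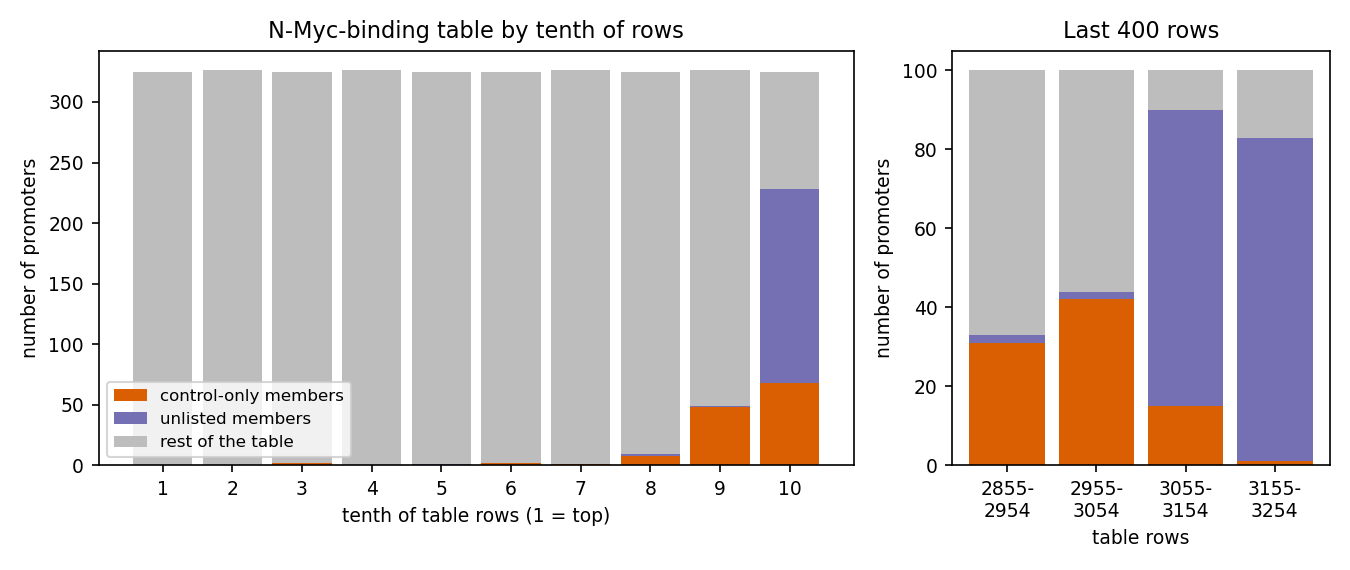
Number of N-Myc-binding promoters by table position. Left, 10 equal parts of the table's rows from top (1) to bottom (10), with bars split into control-only members, unlisted members and the rest of the table. Right, the end of the table in steps of 100 rows. Members fill 228 of the 325 rows in part 10, and unlisted members follow control-only ones, with 75 and 82 in the last steps of 100 rows.

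The 5 members in the first 2000 rows had a close neighbouring promoter or a gene of similar name in RefSeq. PARG, which degrades poly(ADP-ribose), and TIMM23, a channel subunit of mitochondrial protein import, were in rows 848 and 851. APIP, an enzyme of methionine salvage, and PDHX, a component of the pyruvate dehydrogenase complex, were in rows 1841 and 1842. The next control-only member was WRB, in row 2227. Of the unlisted members, 3 lay above the last 10% of rows. They were NOMO1 in row 1385, NSF, the ATPase that recycles SNARE complexes, in row 2347, and CATSPER2, a subunit of the sperm calcium channel, in row 2870. RefSeq names NOMO2 and NOMO3, NSFP1 and CATSPER2P1 beside these genes, and PARGP1 and TIMM23B beside the first pair. The sources used here do not say how reads that fit several copies were treated, so the calls of these members are uncertain. The same holds for SRGAP2, RGPD1, UQCRHL and TUBA1C, which were unlisted members near the bottom. The influence of copies on these calls was not tested.

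Some members shared a stretch of DNA. A TSS of another listed promoter lay within 1 kb of 8 of the 292 members (2.74%, 1.19 to 5.33%), against 393 of the 2962 other promoters of the table (13.3%, 12.1 to 14.5%). The 8 were control-only members in 4 pairs, and none of the 163 unlisted members had such a neighbour (upper limit 2.24%). PARG and TIMM23 started 64 bp apart on chromosome 10 (hg19 positions 51371331 and 51371395). DTL, a substrate receptor of a CUL4 ubiquitin ligase, and INTS7, an Integrator subunit, started 83 bp apart on chromosome 1 (212208919 and 212209002). PDHX and APIP were 262 bp apart on chromosome 11 (34937677 and 34937939). TMEM87A and GANC, a neutral alpha-glucosidase gene, were 611 bp apart on chromosome 15 (42565755 and 42566366). A single peak can lie within 1 kb of both starts of a pair, so the calls of a pair are not independent. No member within 1 kb of another listed TSS had a neighbour of a different class, and the same was true of the 393 other promoters. At 1358 bp, ALDH16A1 was control-only while its neighbour PIH1D1 was listed in both libraries.

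At the wider distance of 200 kb, neighbouring promoters of the table were all members in 15 runs of 2 and 2 runs of 3. These runs include the pairs within 1 kb named above. The share over all neighbouring promoters of the table was not computed, so the counts do not show whether members cluster. The runs of 3 were ATHL1, B4GALNT4 and SIGIRR over 128259 bp of chromosome 11, with SIGIRR unlisted, and TMEM87A, GANC and ZNF106 over 183975 bp of chromosome 15, with ZNF106 unlisted. GDF3 and NANOG, which are both expressed in pluripotent cells, were unlisted members 93635 bp apart on chromosome 12. CDH3 and CDH1, which encode P-cadherin and E-cadherin, were unlisted members 93044 bp apart on chromosome 16. Across the autosomes and chromosome X, the share of N-Myc-binding promoters that were members ranged between 5.30% on chromosome 9 (7 of 132) and 12.6% on chromosome 15 (13 of 103). Chromosome 11 held 15 control-only members among its 19, whereas chromosome 2 held 2 among its 15. Intervals of single chromosomes were wide, with 2.16 to 10.6% on chromosome 9 and 6.89 to 20.6% on chromosome 15.

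Gene groups of growth and division held few members. None of 79 promoters of the ribosome and translation list was a member, none of 36 for DNA repair, none of 21 for oxidative phosphorylation and none of 7 for the MYC network. Of 60 cell cycle and replication promoters, 1 was a member, MAD2L2, which encodes a subunit of the translesion polymerase complex and was control-only. Apoptosis and p53 genes gave 1 of 24, TNFRSF10A, a death receptor for TRAIL, also control-only. Among genes of nucleotide, one-carbon and polyamine metabolism 2 of 33 were members, GLDC, a subunit of the glycine cleavage system, and GLS2, a glutaminase. Chromatin genes gave 3 of 41, with BRD1, a subunit of histone acetyltransferase complexes, control-only, and CBX5, the heterochromatin protein HP1 alpha, and PRDM2 unlisted. Against 8.97% of the table, each of these lists held a smaller share. The exact intervals of the ribosome list (0 to 4.56%) and the cell cycle list (0.0422 to 8.94%) lay below that share, and those of the others included it. These lists also had low shares in the N-Myc-non-binding table, against its 51.8%. Absent there were 0 of 11 ribosome and translation, 2 of 28 DNA repair, 3 of 32 chromatin and 2 of 16 oxidative phosphorylation promoters. The cell cycle list gave 5 of 20, the nucleotide list 3 of 14, the MYC network 2 of 6 and apoptosis and p53 genes 11 of 24. Intervals of the MYC network and apoptosis lists included 51.8%.

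Glycolysis and telomere promoters held 14.3% and 33.3% members, with intervals (1.78 to 42.8% and 0.840 to 90.6%) that included the 8.97% of the table. LDHA and PDHX were the control-only members among 14 glycolysis and pyruvate promoters, and the 12 others, such as ENO1, ALDOA and LDHB, were listed in both libraries. TERT, at hg19 position 1295162 of chromosome 5, was the only member among 3 telomere promoters, and POT1 and TERF2 were listed in both. The LDHA start in the table was position 18417813 of chromosome 11.

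Among lists of tissue-restricted and developmental genes, the intervals of 5 lay above the table's 8.97%. These were matrix and adhesion, TGF-beta and BMP (12.2 to 73.8%), neuronal channel and synapse (17.3 to 64.3%), the mesenchymal state (10.9 to 69.2%) and the list of 2 promoters for blood, epithelium, liver and muscle (15.8 to 100%). The growth factor, AP-1, WNT, Notch, nuclear receptor, homeobox, SOX and forkhead, adrenergic, immune and HOX lists had intervals that included 8.97%, and no list was tested. Of 15 matrix and adhesion promoters 7 were members (46.7%, 21.3 to 73.4%). FN1, fibronectin, and the protease gene ADAM19 were control-only, and CDH1, CDH3, the tight junction gene CLDN4, the gap junction gene GJA1 and the laminin gene LAMA1 were unlisted. Integrin genes ITGA1, ITGB1, ITGB3 and ITGB5 were listed in both. The TGF-beta and BMP list gave 4 of 10, with the activin subunit gene INHBE control-only and the ligand genes BMP7, GDF3 and LEFTY1 unlisted. Its intracellular mediators SMAD3, SMAD4 and SMAD7 and the receptor genes ACVR2B and TGFBR3 were listed in both.

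Among growth factor genes 3 of 8 were members, and these were control-only. They were KIT, the receptor of stem cell factor, IGFBP3, an IGF-binding protein, and FGFRL1. IGFBP2, IGFBP4 and the insulin receptor gene INSR were listed in both. Of 18 neuronal channel and synapse promoters, 7 were members. GRIN2D, an NMDA receptor subunit, NEFH, the heavy neurofilament, and ROBO1, an axon guidance receptor, were control-only. GABRA5, a GABA receptor subunit, NLGN2, a postsynaptic adhesion protein, NPTX2, a neuronal pentraxin, and the semaphorin gene SEMA4G were unlisted.

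Genes used to describe the mesenchymal state of neuroblastoma, in which adrenergic identity is reduced, gave 4 of 11 members. FN1, NOTCH3 and FOSL1, an AP-1 subunit, were control-only and TWIST2 was unlisted, whereas SNAI1, SNAI2, NOTCH1 and NOTCH2 were listed in both. The adrenergic list, which describes the sympathetic lineage of these cells, had 3 promoters in the N-Myc-binding table, with CYB561 control-only and the other two listed in both. Of 36 adrenergic promoters in the non-binding table, 25 were listed in both, and the Schwann cell list had no N-Myc-binding promoter. The AP-1 and immediate early list gave 3 of 8, FOSL1 together with DUSP2 and MAFG. WNT genes gave 2 of 6, the ligand gene WNT9A, control-only, and the receptor gene FZD10, unlisted, while CTNNB1, AXIN1 and LRP6 were listed in both. Nuclear receptor and retinoid genes gave 3 of 11, ALDH1A2, which makes retinoic acid, control-only, and ESRRB and NR0B1, unlisted. Homeobox genes gave 2 of 8, SIX5 and BARX2, and the SOX, forkhead and related list 2 of 11, TCF15 and FOXH1. Of 9 Notch promoters NOTCH3 was the member, and none of 9 immune promoters, none of 6 housekeeping promoters and not the 1 HOX promoter, HOXC13, was one. MYOD1, the myogenic regulator, and CDH1 were the promoters of the list for blood, epithelium, liver and muscle, and both were unlisted members.

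Most members belonged to none of these lists, which covered 47 of the 292. Reading the names led to 3 further lists, and since these were written after the names were seen, their counts only describe what the members are. Germ cell genes made up 24 of the members, out of 32 such promoters in the N-Myc-binding table (75.0%, against 8.97% of the whole table). The control-only ones were ACRBP, DDX25, MTL5, SELV and SMC1B, the last of which encodes a meiotic cohesin subunit. The 19 unlisted ones included the meiotic genes HORMAD1 and MSH4, the RNA-binding protein gene BOLL, RNF17, STK31, MORC1, FKBP6, and the sperm genes ZPBP, ZPBP2, SPESP1, PKDREJ and CATSPER2. The germ cell promoters listed in both were HFM1, MND1, NANOS1, ODF2, STAG3, TBPL1, TDRD1 and TSSK6. Of 49 germ cell promoters in the N-Myc-non-binding table, 41 were absent from the WDR5 siRNA list (83.7%, against 51.8% of that whole table).

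Pluripotency genes gave 7 unlisted members out of 10 promoters. NANOG, UTF1, ESRRB, FOXH1, GDF3, LEFTY1 and TCL1A were unlisted, and SOX2, SALL4 and LIN28B were listed in both. In the non-binding table, 5 of 7 pluripotency promoters were absent from the WDR5 siRNA list. Their interval (29.0 to 96.3%) included the 51.8% of that whole table. The epithelial list gave 12 unlisted members out of 12 promoters, with CDH1, CDH3, CLDN4, the protease inhibitor gene SPINT2 and the epidermal regulator ZNF750 among them. It also held GJA1, a gap junction gene that is not restricted to epithelium. In the non-binding table, 43 of 47 epithelial promoters were absent from the WDR5 siRNA list, of which 12 were control-only. The absent share was 91.5%, against 51.8% of that whole table. Together the lists covered 82 of the 292 members.

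**Figure D2:**
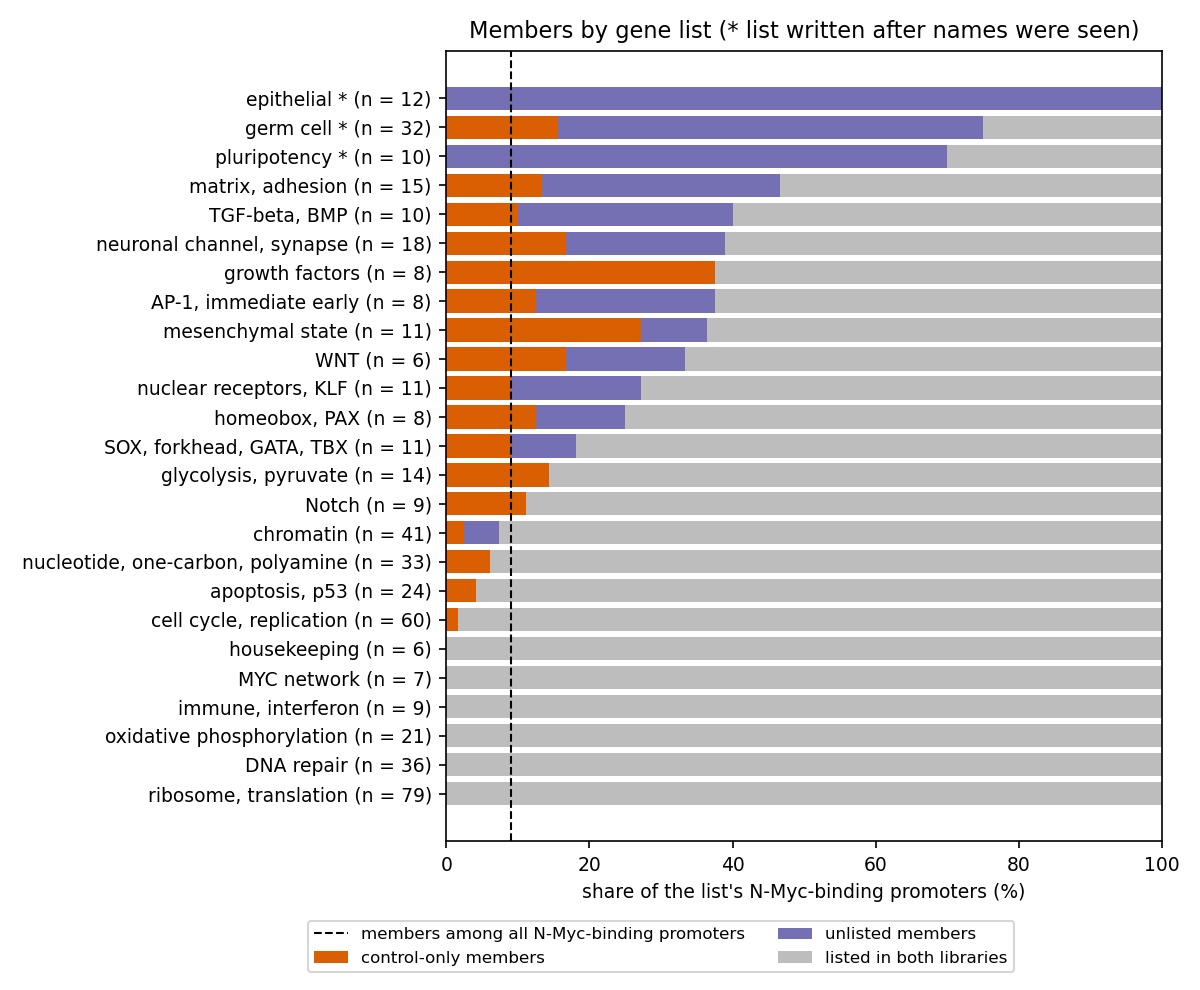
Share of each gene list's N-Myc-binding promoters (horizontal axis, percent) that were control-only members, unlisted members or listed in both libraries, with the number of promoters beside the list name. Lists with an asterisk were written after the member names were seen, and the dashed line marks the 8.97% of the whole table. Ribosome, DNA repair and oxidative phosphorylation lists show no member, and matrix and adhesion promoters show 7 of 15.

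By name family, solute carriers gave 10 members of 71 promoters (14.1%, 6.97 to 24.4%). SLC12A8, SLC25A42, SLC30A2 and SLC38A3 were control-only, and 6 more, among them the glycine transporter gene SLC6A9, were unlisted. Zinc finger names gave 4 of 74, ZNF341, ZNF106, ZNF668 and ZNF750. Mitochondrial ribosomal proteins gave 1 of 43, MRPL1, and cytosolic ribosomal protein names 1 of 59, an unlisted member outside the ribosome and translation list. Coiled-coil (CCDC) names gave 7 of 20 (35.0%, 15.4 to 59.2%), CCDC132 and CCDC3, control-only, and 5 unlisted. Potassium channel names gave 3 of 5, KCNK5 and KCNS3, control-only, and KCNAB2, unlisted. Among TRIM genes, many of which encode ubiquitin ligases, 4 of 15 were members. Transmembrane (TMEM) names gave 1 of 29, phosphatase names 1 of 21 and ABC transporters 1 of 13, and none of 15 RAB and none of 6 kinesin promoters was a member. Names of the form of open reading frames gave 6 of 78. Of the families named here, the intervals of coiled-coil and potassium channel names (14.7 to 94.7% for the second) lay above the table's 8.97%. The intervals of the others included it, and no family was tested.

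Promoter sequence was measured in RefSeq windows of 250 bases before to 50 after each start on GRCh38.p14. A window was found for 231 of the 292 members (79.1%), just under the 80% set as the least for a comparison. No window was used for the 10 members on chromosome 8. Outside chromosome 8 the cover was 81.9% of members, with 81.7% of control-only and 82.1% of unlisted members, and 86.6% of the rest of the table. The comparisons below therefore refer to promoters outside chromosome 8, a restriction made after the cover was seen. In the N-Myc-non-binding table this cover was 77.3% of control-only and 79.8% of unlisted promoters, both under the 80% limit. It was 84.9% of the non-binding promoters listed in both. Sequence values of non-binding control-only and unlisted promoters are thus given as a description only. CpG content was taken as the ratio of observed to expected CpG, averaged over the starts of a gene.

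Member promoters had a lower CpG ratio than the rest of the table, and the separation of unlisted from control-only members depended on the RefSeq starts used. The median CpG ratio was 0.667 in unlisted members (quartiles 0.519 and 0.821) and 0.789 in control-only members (0.681 and 0.896), against 0.879 in promoters listed in both libraries (0.766 and 0.974). Over all RefSeq windows it was 0.579, so the members' medians lay above that of promoters in general. In the N-Myc-non-binding table the medians were 0.741 in control-only promoters, 0.295 in unlisted ones and 0.817 in those listed in both. A lower ratio in promoters absent from the WDR5 siRNA list was thus not particular to the N-Myc-binding table, although cover of the absent non-binding promoters was under the limit. With a high-CpG promoter defined by GC over 50% and a ratio over 0.6, 68.8% of members were of this kind (62.4 to 74.7%), against 90.7% of the rest of the table (89.5 to 91.8%). The share was 84.5% in control-only members (76.0 to 90.9%) and 56.3% in unlisted members (47.2 to 65.0%), and these intervals did not overlap with all starts used. Promoters listed in both that also lay in the last 10% of rows had a median ratio of 0.859, and their high-CpG share of 76.3% had an interval (65.4 to 85.1%) that overlapped that of the members. Set against these promoters, the high-CpG share was higher in control-only members, with overlapping intervals, although their median ratio of 0.789 was lower than 0.859. In unlisted members it was lower, and the interval did not overlap with all starts used. Among genes to which RefSeq gives 1 start, that difference was not seen. The share was 76.9% in unlisted members (64.8 to 86.5%) and 78.7% in these promoters (66.3 to 88.1%), with overlapping intervals.

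The gap in high-CpG share between members and the rest of the table was smaller among genes to which RefSeq gives 1 start. More than 1 start was given for 49.2% of unlisted members (40.3 to 58.2%), 30.1% of control-only members (21.5 to 39.9%) and 26.8% of the rest of the table (25.1 to 28.6%). Among genes with 1 start the high-CpG share was 76.9% in unlisted members (64.8 to 86.5%) and 88.9% in control-only members (79.3 to 95.1%), against 94.1% in the rest (92.9 to 95.1%). The intervals of unlisted and control-only members then overlapped, and their median ratios were 0.806 and 0.818, against 0.904 in the rest. With GC over 55% and a ratio over 0.65, the 1-start shares were 70.8% in unlisted and 72.2% in control-only members. For genes with several starts the window may thus not be the promoter in the table. Single promoters spanned a wide range. Among listed genes, NLGN2 had the lowest ratio of the unlisted members at 0.0717 and ZPBP2 the highest at 1.22, whereas GRIN2D with 0.276 and SMC1B with 1.17 were the extremes of the control-only members. The 21 germ cell members with a window had a median ratio of 0.824.

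**Figure D3:**
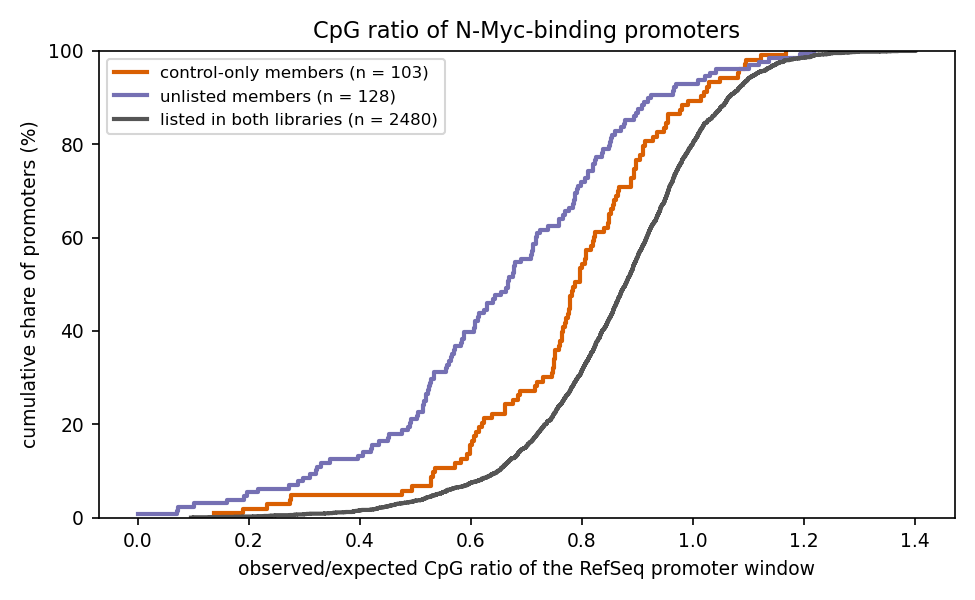
Cumulative share of N-Myc-binding promoters (vertical axis, percent) by observed/expected CpG ratio of the RefSeq promoter window (horizontal axis), for 103 control-only members, 128 unlisted members and 2480 promoters listed in both libraries. The curve of unlisted members lies farthest left up to a ratio of about 1, with medians of 0.667 in unlisted members, 0.789 in control-only members and 0.879 in promoters listed in both.

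The canonical E-box was about as frequent in member promoters as in the others bound by N-Myc. Motifs were searched on both strands of the whole window, and a gene counted when any of its windows held the motif. CACGTG was found in 19.5% of members (14.6 to 25.2%) and 18.2% of the rest of the table (16.7 to 19.7%). The shares were 18.4% in control-only and 20.3% in unlisted members. It was found in 8.90% of N-Myc-non-binding promoters listed in both libraries and in 7.26% of all RefSeq windows, the last of which are counted window by window. Of the variant forms, CACGCG was found in 23.8% of members and 27.8% of the rest, and CATGTG in 13.0% of members and 8.74% of the rest, with 11.4 and 11.1% of all windows. Any of these forms was present in 44.6% of members and 45.4% of the rest. CANNTG, which includes CACGTG and CATGTG, was found in 78.8% of members (72.9 to 83.9%) and 66.0% of the rest (64.1 to 67.9%). With 1 start per gene these shares were 66.4% and 59.9%, and the members' interval of 57.9 to 74.3% included the value of the rest. Promoters listed in both in the last 10% of rows held CACGTG in 23.8% and CANNTG in 73.8% of cases (62.7 to 83.0% for the second), which overlapped the members' intervals.

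Of other promoter elements, the ETS-type sequence CCGGAAG had a lower share in members. It was found in 14.3% of members (10.0 to 19.5%), against 26.7% of the rest (25.0 to 28.5%) and 10.3% of all windows. Control-only members held it in 18.4% of cases (11.5 to 27.3%), and this interval overlapped that of the rest. Unlisted members held it in 10.9% (6.11 to 17.7%), with no overlap. In the N-Myc-non-binding table the share was 9.03% in control-only, 4.59% in unlisted and 20.2% in promoters listed in both. A lower share in absent promoters was thus not particular to the members, although cover of the absent non-binding promoters was under the limit. Among genes with 1 start the shares were 9.49% in members and 25.5% in the rest, and in promoters listed in both in the last 10% of rows the share was 31.3% (21.3 to 42.6%). PARG and TIMM23 were among the members that held it. The CCAAT box was found in 44.6% of members and 43.0% of the rest, and the GC box GGGCGG in 78.8% of members and 79.7% of the rest. These elements occurred in 34.6 and 44.9% of all windows. TATAAA in the 50 bases before the start, on the strand of the gene, was found in 3.90% of members (1.80 to 7.27%) and 1.65% of the rest (1.19 to 2.23%), with overlapping intervals. On either strand of the whole window it was found in 21.1% of unlisted members (14.4 to 29.2%), 4.85% of control-only members, whose interval did not overlap that of the unlisted ones, and 7.01% of the rest (6.04 to 8.09%), against 11.5% of all windows. Among genes with 1 start it was found in 13.8% of unlisted members (6.53 to 24.7%) and 2.78% of control-only members (0.338 to 9.68%), and these intervals overlapped.

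**Figure D4:**
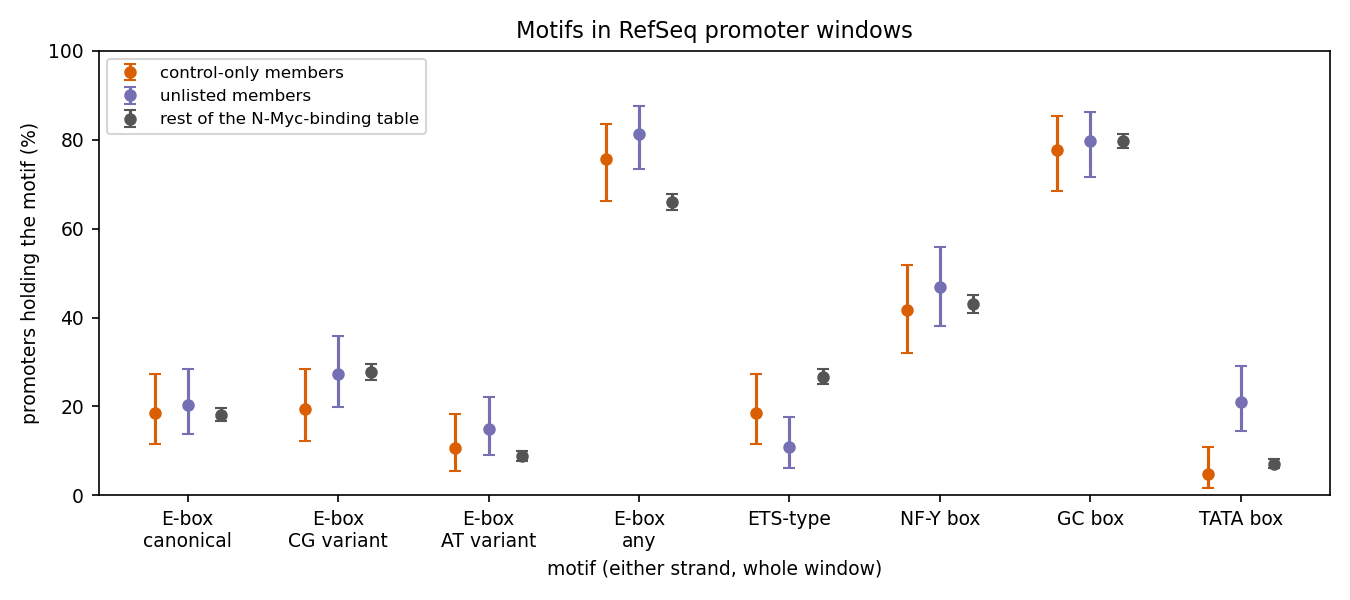
Share of promoters whose RefSeq window holds each motif (vertical axis, percent) in control-only members, unlisted members and the rest of the N-Myc-binding table, with exact 95% intervals over promoters. The canonical E-box stood at 18.4% in control-only members, 20.3% in unlisted members and 18.2% in the rest, and the ETS-type element at 18.4, 10.9 and 26.7% in the same order.

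Pseudogene names in RefSeq were counted as well. A pseudogene named after the gene was found for 32 of 291 members (interval 7.64 to 15.2%), against 24.8% of the rest of the table (23.2 to 26.4%). The share was 10.9% in control-only and 11.1% in unlisted members, and 25.8% in promoters listed in both that lay in the last 10% of rows (17.3 to 35.9%). In the N-Myc-non-binding table it was 5.50% in control-only, 3.82% in unlisted and 14.1% in promoters listed in both. The lower share in absent promoters was thus not particular to the members.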

How the data were processed

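H3K4me3 ChIP-seq of BE(2)-C cells was read from 1 library per siRNA. Per the submitters' processing notes, BWA 0.7.12 and bedtools were used with the genome build hg19, with no role stated. For the peak caller, its threshold, its control library and the definition of N-Myc binding, nothing is given in the sources used here. The deposited files hold other data than measured values, namely names of genes with a peak within 1 kb of the TSS per the file headers, and promoter tables of the authors with a TSS position and a gene name. A planned comparison of levels could therefore not be made, and depth is unknown.

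Samples were grouped by title. Distinct names were compared exactly. The second coordinate of each TSS interval was taken as its hg19 position. Names were matched to RefSeq GRCh38.p14 for gene type, pseudogenes and promoter windows; 291 of the 292 members matched, and CSRP2BP did not. With 1 library per siRNA no test was made. Intervals are exact Clopper-Pearson intervals at 95% over promoters.

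The members and lists were chosen with earlier results of these data known. The germ cell, pluripotency and epithelial lists and the list of copies were written after the member names were seen, and the ETS-type, CCAAT and GC box motifs, the pseudogene and start-number measures and the comparison within the last 10% of rows were chosen after the files were seen. Named genes were list members, the first and last 5 members by row in each set, close pairs, runs of 3, CpG extremes among listed genes, and MYCN, NCL, MDM2 and ODC1; others, and the unlisted sequences printed, were chosen after their values were seen. Alternatives covered name matching, name types, isolated promoters, autosomes, distances, CpG limits, motifs and starts. Intervals came from scipy 1.17.1, tables from pandas 2.3.3 and numpy 2.4.6, and plots from matplotlib 3.10.9, under Python 3.11.15, and the counting steps were tested on simulated data.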

Additional observations from a re-analysis of the deposited data

How the results depend on the processing

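The share of members in the N-Myc-binding table was 9.91% among promoters at least 2 kb from every other TSS of the tables and 8.94% on autosomes, and the control-only share of members was 42.0 and 44.6%. Matching through synonyms and leaving out non-coding names did not move these shares. The share of members with a close TSS was 2.05% at 500 bp and 3.77% at 2 kb. With GC over 55% and a CpG ratio over 0.65, the high-CpG share was 58.9% of members and 70.9% of control-only members. With 1 RefSeq start it was 83.2% of members and 76.9% of unlisted members. The E-box share was 44.6% of members, 39.8% of control-only and 48.4% of unlisted members for any of the 3 specific E-box forms, and 78.8, 75.7 and 81.3% for CANNTG. Searched in the whole window, the TATA sequence was found in 13.9% of members and 21.1% of unlisted members. As a share in the last 10% of rows, the position of members was 78.1%. The motif, window and position settings measure another quantity by construction; for the CpG limits and the number of starts the cause was not tested. No paired analysis was possible because each siRNA had 1 H3K4me3 library, and for the same reason no replicate could be left out. Peak calls have no depth or height here, so a promoter just under the calling limit cannot be told apart from one without the mark.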

Other observations

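The names standing beside control-only members in the control siRNA list, where for example APIP stands beside PDHX, were looked at in the same way. Of the 258 names directly before or after the 129 control-only members, 54 were control-only (20.9%), against 12.4% of the names beside N-Myc-binding promoters listed in both libraries. At least 1 such neighbour was present for 50 control-only members (38.8%), and 684 of 2958 promoters listed in both (23.1%) had one. OTUD6B, HOOK1, MAD2L2 and POLR2A, which encodes the largest subunit of RNA polymerase II, had one on both sides. Over all control-only names of the list the share was 21.7%, so control-only members lay near the value of control-only names in general. The part of peaks shared by neighbouring names was not tested.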
